A study of Mus musculus with 12 samples.

Results

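The genes described here encode the extracellular part of Wnt signalling: the Wnt ligands, the Frizzled receptors, the secreted Dkk and Sfrp inhibitors and the R-spondins. They were chosen by symbol, as every gene named Wnt, Fzd, Dkk, Sfrp or Rspo with a family number and a total of at least 10 reads over 12 libraries. Of 24062 genes counted, 41 symbols fitted these names and 40 reached the total: 18 of 19 Wnt ligands, 10 Frizzleds, 4 Dkk genes, 4 Sfrp genes and 4 R-spondins. Wnt8b, with 9 reads in all, fell just outside and Wnt8a, with 23 reads, was the lowest just inside. Wounds of the back skin were taken from C57BL/6 mice made diabetic with streptozotocin, a toxin of the insulin-producing beta cells, and 12 mice gave 1 RNA-seq library each. The 4 groups of 3 mice are labelled by treatment as pre-MCS-01 and post-MCS-01, as DSCG and as blank. MCS-01 is named as a mast cell stabilizer and is known here only by that code. DSCG commonly stands for disodium cromoglycate, a long-used drug of the same kind, and the blank wounds served as control. What pre and post refer to, the dose, the time and the age are not in the labels. All 12 mice share strain, streptozotocin and wounding, so no uninjured or non-diabetic skin was compared.

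In the canonical pathway a secreted Wnt binds a Frizzled together with Lrp5 or Lrp6, which stabilizes beta-catenin and lets it act with Lef and Tcf factors on target genes. Dkk proteins block the Lrp co-receptors, Sfrp proteins bind Wnts outside the cell, and R-spondins keep Frizzleds on the surface by removing the ligases Znrf3 and Rnf43. In skin this signalling is needed for hair follicles to form and to enter growth, and it acts in epidermal upkeep and in repair.

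Levels below are CPM, gene reads scaled to a common library size with TMM factors, and levels of different genes are compared only per kilobase of exon. Gene reads numbered 3835042 in blank replicate 3 and 37702643 to 50461867 in the other 11 libraries. A count of 0 therefore allowed up to 0.782 CPM in blank replicate 3, and between 0.0595 and 0.0796 CPM elsewhere, for counting error alone. In replicate 2 of pre-MCS-01, replicate 2 of DSCG and replicate 3 of blank, long genes were under-represented: the rank correlation of a gene's deviation with its exon length was -0.389, -0.334 and -0.332 in these libraries, against -0.0559 to 0.367 in the other 9. Markers of the hair shaft and root sheath set the post-MCS-01 wounds apart. All 13 markers were detected, and their summed level was 86.8 to 119 CPM in the post-MCS-01 wounds, against 12810 to 31400 CPM in pre-MCS-01 wounds, 2011 to 40840 CPM in DSCG and 6794 to 20090 CPM in blank wounds. No marker was at 0 throughout a group. The lowest sum outside post-MCS-01, 2011 CPM, was that of DSCG replicate 1. The summed level of 4 melanocyte markers was also lowest in post-MCS-01 wounds, without overlap, at 11.35 to 45.8 CPM, against 129 to 722 CPM in pre-MCS-01 wounds, 75.2 to 287 CPM in DSCG and 58.6 to 154 CPM in blank wounds, and none of the 4 was called.

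None of the 36 genes of the families that passed the filter on low counts passed the test in any of the 6 comparisons or in the joint test of the 4 groups (edgeR's quasi-likelihood test, Benjamini-Hochberg adjustment over 16267 genes, adjusted p under 0.05). The test called 134 of all genes (0.824%) between pre-MCS-01 and post-MCS-01 and 172 (1.06%) between post-MCS-01 and DSCG. In the other 4 comparisons and in the joint test it called 0 genes (0%) in all. At an unadjusted p under 0.05 the families had 5 genes for pre-MCS-01 against blank (7.24% of all genes passed), 7 for post-MCS-01 against blank (9.35%) and 0 for DSCG against blank (1.03%). They had 9 for pre-MCS-01 against post-MCS-01 (10.2%), 1 for pre-MCS-01 against DSCG (2.36%), 5 for post-MCS-01 against DSCG (11.3%) and 6 in the joint test (8.42%).

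Other tools gave other counts. DESeq2 called 1 gene of the families for post-MCS-01 against blank (2.57% of all genes), 2 for pre-MCS-01 against post-MCS-01 (2.63%), 2 for post-MCS-01 against DSCG (3.81%), 2 in the joint test (3.56%), 0 for pre-MCS-01 against blank (0.441%), 0 for pre-MCS-01 against DSCG (0.105%) and 0 for DSCG against blank (0%). limma-voom called 0 throughout, while over all genes it called 0.00615% for pre-MCS-01 against post-MCS-01, 0.0123% for post-MCS-01 against DSCG and 0% elsewhere. The newer edgeR fit called 0 of the families as well. limma-voom with library quality weights called 13 for pre-MCS-01 against blank (15.3% of all genes), 3 for post-MCS-01 against blank (5.08%), 12 for pre-MCS-01 against post-MCS-01 (23.5%), 12 in the joint test (20.1%) and 0 elsewhere. With these weights Dkk2, Fzd2, Fzd4, Wnt2, Wnt2b, Wnt5b and Wnt9a were called lower, and Fzd10, Rspo2, Wnt3a, Wnt4, Wnt10a and Wnt10b higher, in pre-MCS-01 than in blank wounds. Fzd5, Wnt10b and Wnt11 were called lower in post-MCS-01 than in blank wounds. Between pre-MCS-01 and post-MCS-01, Fzd5, Fzd10, Rspo2, Rspo3, Wnt4, Wnt6, Wnt10b and Wnt11 were called higher in pre-MCS-01, and Dkk2, Fzd9, Wnt2b and Wnt7a lower. Without DSCG replicate 1 edgeR called 1 gene, Wnt11, for post-MCS-01 against blank (1.34% of all genes) and for pre-MCS-01 against post-MCS-01 (1.54%). It called 1, Wnt11, in the joint test (1.65%) and 2, Wnt11 and Fzd5, for post-MCS-01 against DSCG (3.67%). With any other single library left out it called no gene of the families. The 3 values of the groups did not overlap for 6 genes in pre-MCS-01 against blank (14.4% of all genes), 3 in post-MCS-01 against blank (18.4%), 0 in DSCG against blank (3.68%), 9 in pre-MCS-01 against post-MCS-01 (17.7%), 1 in pre-MCS-01 against DSCG (5.12%) and 6 in post-MCS-01 against DSCG (15.4%).

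Per kilobase, Wnt4 was the most abundant ligand, with a mean of 37.9 CPM per kb over the 12 libraries, before Wnt10a at 19.8 and Wnt11 at 10.3. Wnt4 made up a median of 37.7% of the summed ligand level (range 20.9 to 46.1%), Wnt10a 19.9% (12.95 to 28.0%) and Wnt11 9.60% (1.77 to 21.1%). The lowest Wnt11 share, 1.77%, stood in a post-MCS-01 wound and the highest, 21.1%, in a DSCG wound. The summed ligand level was 117 ± 28.2 CPM per kb in pre-MCS-01, 80.9 ± 15.05 in post-MCS-01, 118 ± 19.3 in DSCG and 96.45 ± 29.1 in blank wounds (SD, n = 3 each), and the groups overlapped except post-MCS-01 and DSCG, whose libraries ranged from 71.1 to 98.25 and from 105.5 to 140 CPM per kb. Among receptors Fzd1 led with a mean of 37.5 CPM per kb, then Fzd10 at 23.0 and Fzd2 at 22.4. Sfrp2 led the inhibitors with 78.1 CPM per kb, ahead of Dkk3 at 24.2 and Sfrp1 at 17.7. The R-spondins were lower as a family, with Rspo1 at 4.27, Rspo4 at 2.15 and Rspo3 at 0.817 CPM per kb.

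**Figure D1:**
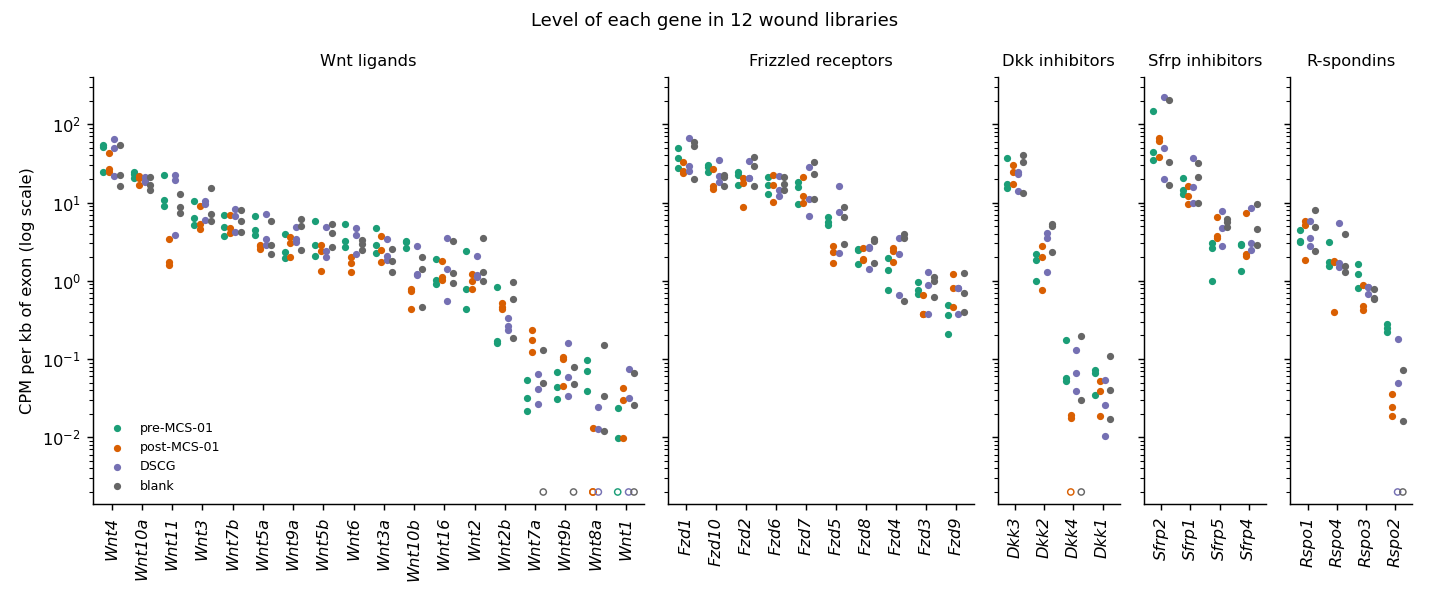
Level of each gene in CPM per kb of exon (log scale), with 1 point per library coloured by group and the genes of each family in order of their mean. Sfrp2, Wnt4 and Fzd1 stand at the top of their families, with means of 78.1, 37.9 and 37.5 CPM per kb, and Wnt1 and Wnt8a at the low end of the ligands.

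**Figure D2:**
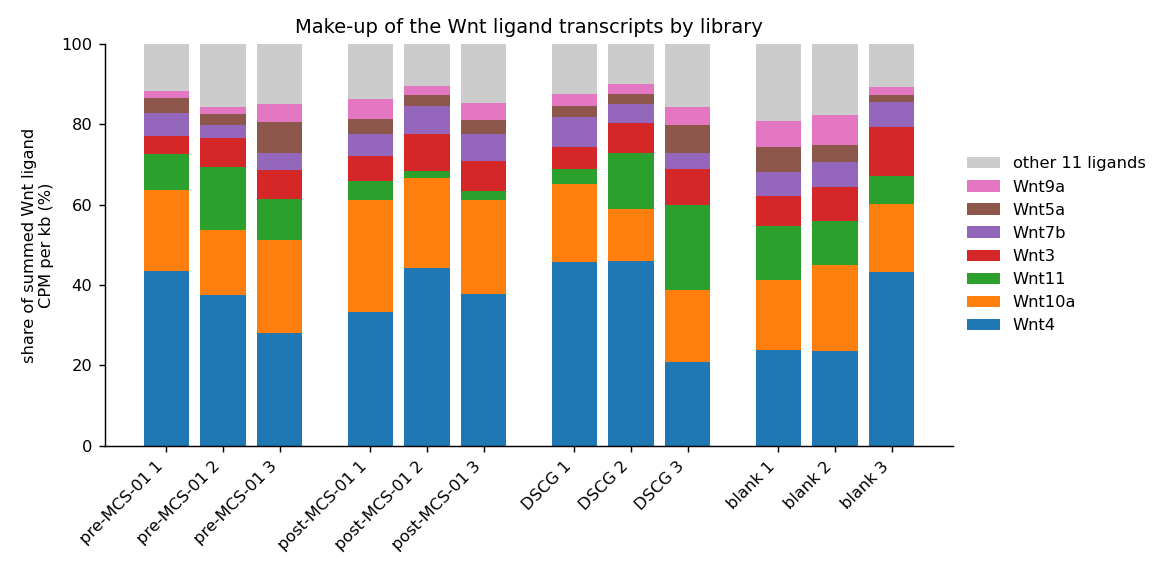
Share of each ligand in the summed Wnt ligand level (CPM per kb, in percent) in each of the 12 libraries, by group. Wnt4 takes 20.9 to 46.1% and Wnt10a 12.95 to 28.0% of it, and the Wnt11 share runs from 1.77 to 21.1%.

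The ligands with the smallest joint p were Wnt11, Wnt10b, Wnt7a and Wnt6. Wnt11, Wnt10b and Wnt6 had their lowest group mean in post-MCS-01 wounds, and Wnt7a its highest. Their promoters are shown because these 4 are the ligands nearest to a difference between groups. Each window runs from 250 bases before the start site to 50 after it (RefSeq, GRCm38.p6), 5′ to 3′ on the gene's strand, with the Lef/Tcf core motif CTTTGA or its complement TCAAAG in capitals. The Wnt11 window is chr7:98834862-98835161 on the plus strand, that of Wnt10b chr15:98778101-98778400 on the minus strand, that of Wnt6 chr1:74771642-74771941 on the plus strand and that of Wnt7a chr6:91411304-91411603 on the minus strand.
Wnt11: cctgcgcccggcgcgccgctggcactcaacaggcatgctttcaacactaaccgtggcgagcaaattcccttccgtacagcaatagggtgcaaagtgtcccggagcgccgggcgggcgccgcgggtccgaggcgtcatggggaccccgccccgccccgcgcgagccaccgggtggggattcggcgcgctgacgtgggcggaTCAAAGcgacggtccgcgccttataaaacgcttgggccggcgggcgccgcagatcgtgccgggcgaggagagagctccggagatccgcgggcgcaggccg
Wnt10b: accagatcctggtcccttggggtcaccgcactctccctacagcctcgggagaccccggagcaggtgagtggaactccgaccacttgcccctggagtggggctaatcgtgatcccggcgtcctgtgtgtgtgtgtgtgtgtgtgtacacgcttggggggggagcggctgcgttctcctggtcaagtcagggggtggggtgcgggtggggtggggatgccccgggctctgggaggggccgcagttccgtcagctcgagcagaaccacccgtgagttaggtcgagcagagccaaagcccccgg
Wnt6: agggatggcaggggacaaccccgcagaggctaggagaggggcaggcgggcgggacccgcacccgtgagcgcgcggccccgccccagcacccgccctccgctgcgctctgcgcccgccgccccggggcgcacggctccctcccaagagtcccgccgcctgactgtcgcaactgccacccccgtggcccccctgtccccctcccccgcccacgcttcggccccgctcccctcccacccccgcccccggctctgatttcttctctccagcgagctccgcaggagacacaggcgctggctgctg
Wnt7a: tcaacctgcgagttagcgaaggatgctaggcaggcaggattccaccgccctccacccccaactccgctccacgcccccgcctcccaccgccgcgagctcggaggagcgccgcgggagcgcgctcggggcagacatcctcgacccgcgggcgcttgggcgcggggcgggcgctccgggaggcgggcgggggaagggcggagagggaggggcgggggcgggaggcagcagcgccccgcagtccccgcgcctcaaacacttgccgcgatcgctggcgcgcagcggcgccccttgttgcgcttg
The Wnt11 window holds TCAAAG with its first base 50 bases before the start site (position -50). The other 3 windows, and the window of a second Wnt11 start (chr7:98838595-98838894), do not hold these letters on either strand. Over all families the motif stood in 4 of 29 windows (13.79%), against 5257 of 32851 windows of all genes (16.0%), and windows were found for 26 of the 40 genes. The median content of G and C bases was 70.7% in the windows of the families and 52.7% in those of all genes. The motif shares were not adjusted for this.

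Wnt11 (ENSMUSG00000015957, chromosome 7, 98835112 to 98855195, plus strand) encodes a ligand best known for beta-catenin-independent signalling in cell movement. It was at 44.6, 92.5 and 37.0 CPM in pre-MCS-01 wounds, 14.2, 7.20 and 6.61 CPM in post-MCS-01 wounds, 15.9, 80.4 and 92.2 CPM in DSCG wounds and 52.7, 30.1 and 35.9 CPM in blank wounds. Every post-MCS-01 library lay below every library of the other groups, with DSCG replicate 1 the nearest to them. In edgeR's test the log2 difference of post-MCS-01 from DSCG was -2.75 ± 0.61 (SE; 95% interval -4.08 to -1.43; adjusted p = 0.0633). Pre-MCS-01 against post-MCS-01 gave 2.64 ± 0.60 (adjusted p = 0.0836), and post-MCS-01 against blank -2.09 ± 0.59 (adjusted p = 0.235). Without DSCG replicate 1 these comparisons passed, with log2 differences of -3.21 (adjusted p = 0.00280), 2.64 (adjusted p = 0.00759) and -2.09 (adjusted p = 0.0328) in edgeR, which then called 3.67%, 1.54% and 1.34% of all genes. Leaving out any other single library did not make Wnt11 pass in any of them. Without the 3 libraries short of long transcripts these comparisons did not pass either, with -2.53 (adjusted p = 0.285), 2.11 (adjusted p = 0.566) and -2.14 (adjusted p = 0.398). DESeq2 called all of them, with adjusted p of 0.000138, 0.000475 and 0.0174. The joint test of Wnt11 gave an adjusted p of 0.253, and of 0.0196 without DSCG replicate 1 (1.65% of all genes called). Fits of only the groups compared also called it, for post-MCS-01 against blank (adjusted p = 0.0363, 1.61% of all genes called) and for pre-MCS-01 against post-MCS-01 (adjusted p = 0.0471, 1.25%).

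Wnt10b (ENSMUSG00000022996, chromosome 15, 98770712 to 98778150, minus strand) encodes a canonical ligand made by the epithelium of growing hair follicles. Its level was 10.6, 10.9 and 8.86 CPM in pre-MCS-01 wounds, 2.70, 1.49 and 2.53 CPM in post-MCS-01 wounds, 4.10, 4.07 and 9.49 CPM in DSCG wounds and 6.94, 4.76 and 1.57 CPM in blank wounds. The pre-MCS-01 libraries lay above all post-MCS-01 and blank libraries, and the post-MCS-01 libraries lay below all DSCG libraries and overlapped blank. Pre-MCS-01 against post-MCS-01 differed by 2.18 ± 0.48 on the log2 scale (4.52-fold, 95% interval 1.13 to 3.23 in log2; edgeR adjusted p = 0.0691). DESeq2 and an edgeR fit of these groups alone called this difference, with adjusted p of 0.000218 and 0.0195; the second fit called 1.25% of all genes. The log2 difference was -1.40 ± 0.47 for post-MCS-01 against DSCG (adjusted p = 0.250) and 1.11 ± 0.47 for pre-MCS-01 against blank (adjusted p = 0.672). Wnt1, the next gene along the chromosome at 11706 bases with no coding gene between, had 33 reads in all and was not tested.

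Wnt6 (ENSMUSG00000033227, chromosome 1, 74771892 to 74785322, plus strand), another epithelial ligand, stood at 7.01, 11.7 and 5.96 CPM in pre-MCS-01 wounds, 4.46, 2.83 and 3.72 CPM in post-MCS-01 wounds, 4.81, 8.48 and 10.3 CPM in DSCG wounds and 7.37, 5.47 and 6.55 CPM in blank wounds. The post-MCS-01 values lay below all others, with DSCG replicate 1 close above the highest of them. The log2 differences were 1.17 ± 0.35 for pre-MCS-01 against post-MCS-01 (adjusted p = 0.228), -1.10 ± 0.34 for post-MCS-01 against DSCG (adjusted p = 0.212) and -0.82 ± 0.35 for post-MCS-01 against blank (adjusted p = 0.487), all by edgeR. Wnt10a, a canonical ligand needed for skin appendages and teeth, lies 6193 bases from Wnt6 with no coding gene between. It ranged from 50.3 to 59.7 CPM in pre-MCS-01 wounds, 40.9 to 54.4 CPM in post-MCS-01, 44.8 to 51.8 CPM in DSCG and 35.8 to 52.4 CPM in blank wounds and no pair of groups separated.

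Wnt7a (ENSMUSG00000030093, chromosome 6, 91363981 to 91411363, minus strand), a ligand known from limb, nervous system and reproductive tract, was scarce. It had 4, 6 and 3 reads in pre-MCS-01 wounds, 30, 23 and 17 in post-MCS-01 wounds, 8, 6 and 4 in DSCG wounds and 8, 20 and 0 in blank wounds. The post-MCS-01 levels, 0.390 to 0.756 CPM, lay above those of pre-MCS-01 (0.0690 to 0.171 CPM) and DSCG (0.0847 to 0.203 CPM) and overlapped blank, whose replicate 2 reached 0.416 CPM. The 0 of blank replicate 3 allows up to 0.782 CPM, more than any library showed, so it carries no information on this gene. Pre-MCS-01 against post-MCS-01 differed by -2.31 ± 0.60 (adjusted p = 0.151) and post-MCS-01 against DSCG by 2.01 ± 0.58 (adjusted p = 0.169) on the log2 scale.

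The hair shaft and root sheath markers were lowest in post-MCS-01 wounds, as were the group means of Wnt11, Wnt10b and Wnt6, while that of Wnt7a was highest there. Of the 13 markers, the same test called 10 for pre-MCS-01 against post-MCS-01, all higher in pre-MCS-01 (0.805% of all genes), and 12 for post-MCS-01 against DSCG, all lower in post-MCS-01 (0.916% of all genes). DSCG replicate 1, where Wnt11, Wnt6 and Fzd5 were lowest within the DSCG group, also had the lowest hair marker sum of that group. Wnt10b was about as low in DSCG replicate 1 and replicate 2, at 4.10 and 4.07 CPM, although the hair marker sum was 2011 CPM in the first and 32060 CPM in the second. The summed level of 9 dermal papilla markers was 89.9 to 125 CPM in pre-MCS-01 wounds, 80.3 to 85.1 in post-MCS-01, 98.9 to 128 in DSCG and 85.2 to 115 in blank wounds, and none of them was called. For 7 hair follicle stem cell markers the sum was 576 to 929 CPM in post-MCS-01 wounds and 574 to 1149 in pre-MCS-01. It was 593 to 1332 in DSCG and 1121 to 2141 in blank wounds, and none of these markers was called. The part that hair follicle or melanocyte content plays in the ligand differences was not tested. In bulk tissue, fewer cells of a type and less RNA per cell cannot be told apart.

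**Figure D3:**
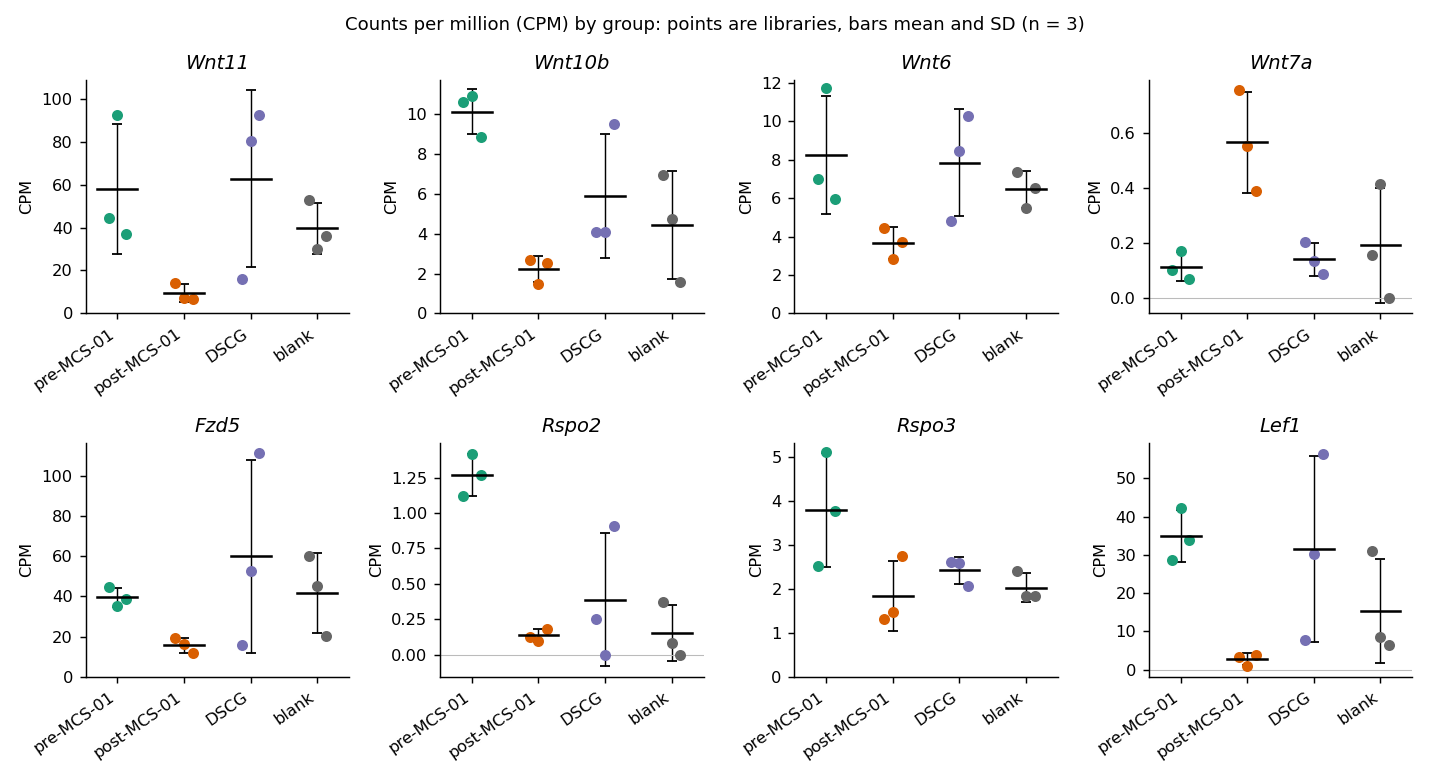
CPM of the 6 genes of the families with the smallest joint p, and of Rspo3 and Lef1. Each panel has 1 point per library and bars for mean and SD (n = 3) in each of the 4 groups. Wnt11 is at 6.61 to 14.2 CPM in every post-MCS-01 library, below all others, and Rspo2 is at 1.12 to 1.42 CPM in pre-MCS-01 wounds, above all others.

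Wnt4, a ligand made in the epidermis, was at 217, 227 and 104 CPM in pre-MCS-01 wounds, 102, 182 and 113 CPM in post-MCS-01, 207, 271 and 92.3 CPM in DSCG and 95.2, 67.4 and 229 CPM in blank wounds. The mean was 182 ± 68.5 CPM in pre-MCS-01 wounds, 132 ± 43.3 CPM in post-MCS-01, 189.9 ± 90.3 CPM in DSCG and 130.5 ± 86.4 CPM in blank wounds (SD, n = 3 each), and all groups overlapped. Its largest log2 difference, DSCG against blank, was 0.55 ± 0.51 (95% interval -0.56 to 1.66). Wnt2b, a canonical ligand of several embryonic organs, had the smallest p of the families for DSCG against blank, at 1.39, 0.989 and 1.12 CPM in DSCG against 4.04, 2.47 and 0.786 CPM in blank wounds (log2 -1.17 ± 0.63, adjusted p = 0.999). In pre-MCS-01 wounds it was at 0.721, 0.682 and 3.45 CPM, and in post-MCS-01 wounds at 1.81, 1.92 and 2.16 CPM. Blank replicate 1 was high and blank replicate 3 low, so DSCG and blank overlapped.

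Of the other 9 ligands tested, Wnt3, Wnt5a and Wnt7b had mean levels of 24.4, 30.9 and 27.8 CPM, and Wnt9a, Wnt5b, Wnt3a, Wnt16 and Wnt2 of 11.7 to 3.14 CPM. Wnt9b averaged 0.291 CPM. Wnt5a, the prototype of beta-catenin-independent ligands, was at 34.6, 29.8 and 52.2 CPM in pre-MCS-01 wounds, 22.2, 21.9 and 19.8 CPM in post-MCS-01, 22.5, 26.9 and 55.9 CPM in DSCG and 45.8, 22.3 and 17.3 CPM in blank wounds. The post-MCS-01 values were below all pre-MCS-01 and DSCG values and overlapped blank. Neither difference passed edgeR's test. The log2 difference was 0.87 ± 0.40 for pre-MCS-01 against post-MCS-01 (adjusted p = 0.497) and -0.72 ± 0.40 for post-MCS-01 against DSCG (adjusted p = 0.546). Wnt3, a canonical ligand, was highest in pre-MCS-01 replicate 2 (32.5 CPM), DSCG replicate 2 (32.0 CPM) and blank replicate 3 (47.2 CPM), the 3 libraries short of long transcripts. Its exons span 3.08 kb, and the part of transcript length in this was not tested. Dkk3, with 3.36 kb of exon, was the lowest of its group in each of these 3 libraries. The antisense gene AU022754, which was also counted, overlaps 324 exonic bases of Wnt7b on the opposite strand. How reads over these bases were assigned is not known, since the strand setting of the counting is not given in the sources used here. No other gene of the families shares exonic bases with another counted gene that was matched to the annotation.

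Among the Frizzleds, Fzd5 had the smallest joint p. Fzd5 (ENSMUSG00000045005, chromosome 1, 64730558 to 64737751, minus strand), a receptor for both canonical and non-canonical Wnts, was at 44.8, 35.5 and 38.8 CPM in pre-MCS-01 wounds, 19.2, 16.1 and 11.7 CPM in post-MCS-01, 15.8, 52.6 and 111 CPM in DSCG and 60.0, 44.99 and 20.4 CPM in blank wounds. The post-MCS-01 libraries lay below those of pre-MCS-01 and blank and overlapped DSCG because of replicate 1. The log2 difference was -1.94 ± 0.57 for post-MCS-01 against DSCG (edgeR adjusted p = 0.178), 1.34 ± 0.56 for pre-MCS-01 against post-MCS-01 (adjusted p = 0.446) and -1.43 ± 0.56 for post-MCS-01 against blank (adjusted p = 0.434). Without DSCG replicate 1 the first of these was -2.39 and passed (adjusted p = 0.0109). DESeq2 called it with all libraries (adjusted p = 0.0181), and an edgeR fit of pre-MCS-01 and post-MCS-01 alone called the second (adjusted p = 0.0473).

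Fzd3, which acts in axon guidance, was at 9.82, 12.4 and 8.77 CPM in pre-MCS-01 wounds, 8.42, 4.85 and 4.77 CPM in post-MCS-01, 4.81, 11.2 and 16.7 CPM in DSCG and 12.8, 14.4 and 7.86 CPM in blank wounds. Pre-MCS-01 lay above post-MCS-01, and post-MCS-01 overlapped the other groups. The log2 difference of post-MCS-01 from blank was -0.98 ± 0.42 (adjusted p = 0.482). The 3 most abundant receptors overlapped between most groups. Fzd1, a receptor for canonical Wnts, was at 155, 116 and 210 CPM in pre-MCS-01 wounds, 137, 98.8 and 106 CPM in post-MCS-01, 121, 106 and 283 CPM in DSCG and 250, 219 and 84.6 CPM in blank wounds. Fzd10 was at 98.6, 92.7 and 78.7 CPM in pre-MCS-01 wounds, 48.3, 86.5 and 53.2 CPM in post-MCS-01, 71.0, 60.2 and 112 CPM in DSCG and 69.8, 53.1 and 73.4 CPM in blank wounds. The pre-MCS-01 values of Fzd10 lay above the blank values (log2 0.46 ± 0.28, adjusted p = 0.731), and no other pair separated for these receptors.

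Fzd2 was at 61.4, 81.8 and 88.6 CPM in pre-MCS-01 wounds, 75.0, 31.8 and 64.9 CPM in post-MCS-01, 74.4, 74.6 and 126 CPM in DSCG and 138, 109 and 59.2 CPM in blank wounds. Post-MCS-01 against blank gave -0.84 ± 0.37 on the log2 scale (adjusted p = 0.513). Of the other 5, Fzd6 and Fzd7 averaged 80.7 and 75.6 CPM, Fzd4 and Fzd8 14.1 and 14.02 CPM and Fzd9 1.51 CPM. Fzd4, the receptor for norrin in blood vessels, has 6.72 kb of exon and was lowest in the 3 libraries short of long transcripts, at 5.06 CPM in pre-MCS-01 replicate 2, 4.395 CPM in DSCG replicate 2 and 3.67 CPM in blank replicate 3, against 9.25 to 26.3 CPM in the other 9. The part of transcript length in this was not tested here either. Fzd3, with 12.8 kb of exon, was the highest of its group in pre-MCS-01 replicate 2. It lay between the others in DSCG replicate 2 and was the lowest in blank replicate 3.

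Among the secreted inhibitors edgeR called no pair of groups, limma-voom with quality weights called Dkk2, and Sfrp2 had the widest range between mice of the 6 tested. Sfrp2, a Wnt-binding protein of dermal fibroblasts, was at 96.5, 74.7 and 314 CPM in pre-MCS-01 wounds, 81.5, 130 and 143 CPM in post-MCS-01, 483, 106 and 42.4 CPM in DSCG and 438, 71.4 and 36.2 CPM in blank wounds. Replicate 3 of pre-MCS-01, replicate 1 of DSCG and replicate 1 of blank stood high, and all groups overlapped. The summed level of 7 fibroblast markers was also highest within each of these groups in the same libraries, at 65270 CPM in pre-MCS-01 replicate 3, 52810 CPM in DSCG replicate 1 and 68370 CPM in blank replicate 1, against 11830 to 38810 CPM in the other 6 libraries of these groups and 19260 to 48230 CPM in post-MCS-01 wounds. The part of fibroblast content in Sfrp2 was not tested. Its log2 difference was -0.17 ± 0.97 for pre-MCS-01 against blank, -0.63 ± 0.98 for post-MCS-01 against blank and 0.20 ± 0.97 for DSCG against blank, so that the 95% interval of the last ran from -1.92 to 2.33.

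Dkk3, a divergent Dkk that does not act as a plain Lrp blocker, made up a median of 90.2% of the summed Dkk level. It was at 57.6, 52.0 and 124 CPM in pre-MCS-01 wounds, 102, 58.4 and 82.3 CPM in post-MCS-01, 78.0, 46.6 and 82.3 CPM in DSCG and 136, 111 and 44.5 CPM in blank wounds. Sfrp1, another Wnt-binding inhibitor, was at 62.5, 89.8 and 56.8 CPM in pre-MCS-01 wounds, 52.8, 42.2 and 71.9 CPM in post-MCS-01, 43.5, 69.9 and 161 CPM in DSCG and 141, 91.8 and 43.5 CPM in blank wounds. Both overlapped between all groups, and the 95% interval of each of their log2 differences included 0. Sfrp4 averaged 17.3 CPM and was highest in DSCG replicate 1, at 35.1 CPM, and blank replicate 1, at 40.6 CPM.

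Sfrp5 and Dkk2 were the inhibitors with the smallest p, both with their lowest group mean in pre-MCS-01. Sfrp5 was at 5.82, 4.92 and 1.91 CPM in pre-MCS-01 wounds, 6.75, 7.15 and 12.5 CPM in post-MCS-01, 14.9, 8.94 and 5.34 CPM in DSCG and 10.6, 9.27 and 11.8 CPM in blank wounds. Its pre-MCS-01 values lay below all post-MCS-01 and blank values and overlapped DSCG. The log2 difference was -1.32 ± 0.46 for pre-MCS-01 against blank (adjusted p = 0.658), -1.21 ± 0.45 for pre-MCS-01 against DSCG (adjusted p = 0.9998) and -1.06 ± 0.45 for pre-MCS-01 against post-MCS-01 (adjusted p = 0.451). Dkk2, which can block Lrp6 or weakly activate it depending on the context, was at 3.68, 6.85 and 8.22 CPM in pre-MCS-01 wounds, 10.3, 2.78 and 7.39 CPM in post-MCS-01, 4.74, 15.0 and 13.2 CPM in DSCG and 18.4, 19.7 and 8.65 CPM in blank wounds. Pre-MCS-01 lay below blank by a narrow margin set by blank replicate 3 (log2 -1.34 ± 0.55, adjusted p = 0.669), and post-MCS-01 against blank gave -1.21 ± 0.54 (adjusted p = 0.519). With quality weights limma-voom called Dkk2 lower in pre-MCS-01 than in blank (log2 -2.14, adjusted p = 0.0133) and than in post-MCS-01 (-1.08, adjusted p = 0.0492), and in the joint test (adjusted p = 0.0156). The other alternatives did not call it against blank. The classical blocker Dkk1 and Dkk4 had 46 and 33 reads in all and were not tested.

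**Figure D4:**
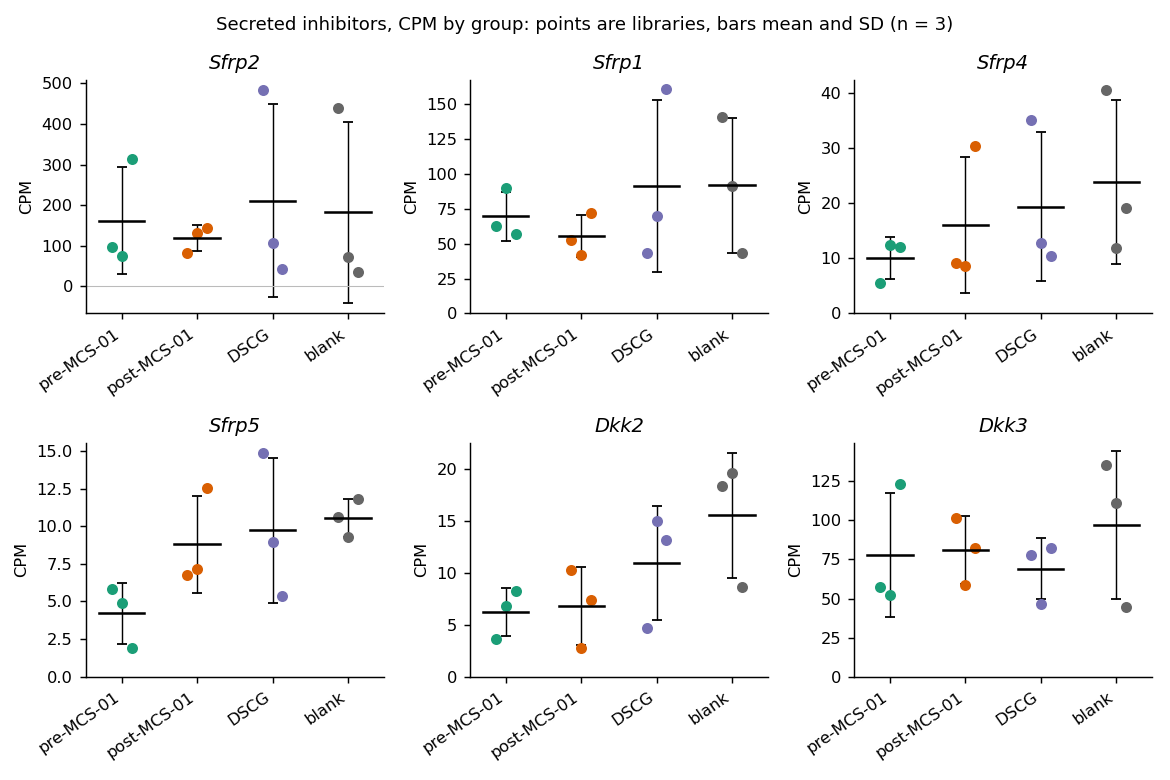
CPM of the secreted inhibitors in the 4 groups, with 1 point per library and bars for mean and SD (n = 3). Sfrp2 runs from 36.2 to 483 CPM with single high libraries in 3 groups, and Sfrp5 is at 1.91 to 5.82 CPM in pre-MCS-01 against 9.27 to 11.8 CPM in blank.

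Rspo2 and Rspo3 had their highest group means in pre-MCS-01 wounds. Rspo2 (ENSMUSG00000051920, chromosome 15, 43020794 to 43170826, minus strand), a potentiator of Wnt signalling linked to hair type in dogs, had 45, 50 and 55 reads in pre-MCS-01, 5, 4 and 8 in post-MCS-01, 10, 0 and 43 in DSCG and 19, 4 and 0 in blank wounds. In CPM these were 1.12, 1.42 and 1.27 in pre-MCS-01, 0.126, 0.0960 and 0.184 in post-MCS-01, 0.253, 0 and 0.910 in DSCG and 0.373, 0.0832 and 0 in blank wounds. All pre-MCS-01 libraries lay above all others, although the 0 of blank replicate 3 allows up to 0.782 CPM and rests on few reads. The log2 difference of pre-MCS-01 was 3.20 ± 1.01 from post-MCS-01 (adjusted p = 0.279), 2.60 ± 1.04 from blank (adjusted p = 0.669) and 1.69 ± 0.91 from DSCG (adjusted p = 0.9998) by edgeR. An edgeR fit of pre-MCS-01 and post-MCS-01 alone called Rspo2 (adjusted p = 0.0178). limma-voom with quality weights called it for pre-MCS-01 against post-MCS-01 (adjusted p = 0.00636), for pre-MCS-01 against blank (adjusted p = 0.0259) and in the joint test (adjusted p = 0.0190). Single libraries set the size of the other differences: against blank it was 4.02 without blank replicate 1 and 2.06 without blank replicate 2, and against DSCG 3.28 without DSCG replicate 3 and 1.11 without DSCG replicate 2, and none of these values passed.

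Rspo3, which is made by endothelium among other cells, was at 2.51, 5.11 and 3.77 CPM in pre-MCS-01 wounds, 1.31, 1.46 and 2.75 CPM in post-MCS-01, 2.61, 2.59 and 2.08 CPM in DSCG and 2.41, 1.83 and 1.83 CPM in blank wounds. Pre-MCS-01 lay just above blank and overlapped post-MCS-01 and DSCG. The log2 difference of pre-MCS-01 was 1.04 ± 0.36 from post-MCS-01 (adjusted p = 0.330), 0.89 ± 0.37 from blank (adjusted p = 0.671) and 0.65 ± 0.35 from DSCG (adjusted p = 0.9998). Rspo1, the most abundant of the family, was at 6.02, 8.75 and 6.33 CPM in pre-MCS-01 wounds, 11.3, 3.58 and 9.96 CPM in post-MCS-01, 6.92, 5.34 and 11.4 CPM in DSCG and 9.53, 15.5 and 4.72 CPM in blank wounds. Rspo4, known from inherited nail loss in humans, was at 4.13, 3.61 and 7.52 CPM in pre-MCS-01 wounds, 4.28, 0.936 and 4.06 CPM in post-MCS-01, 3.98, 3.54 and 12.98 CPM in DSCG and 9.45, 3.06 and 3.67 CPM in blank wounds. All groups overlapped for Rspo1 and Rspo4.

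Read as counts of signs, the families lay mostly below blank in the post-MCS-01 wounds: the fitted log2 difference was negative for 30 of 36 genes, with a median of -0.50, while over all genes tested 49.2% were positive and the median was -0.01. By role these were 11 of 16 ligands, 9 of 10 Frizzleds, 2 of 2 Dkk genes, 4 of 4 Sfrp genes and 4 of 4 R-spondins. Pre-MCS-01 against blank gave 26 of 36 negative with a median of -0.23 (all genes 54.1% positive, median 0.04), and DSCG against blank 20 of 36 with a median of -0.08 (all genes 49.8% positive). These comparisons share the 3 blank libraries. Pre-MCS-01 against post-MCS-01 gave 23 of 36 positive with a median of 0.25 (all genes 52.5% positive, median 0.03), and post-MCS-01 against DSCG 27 of 36 negative with a median of -0.44 (all genes 49.4% positive). Pre-MCS-01 against DSCG gave 24 of 36 negative with a median of -0.14 (all genes 54.6% positive). Scaling by total counts moved the median of all genes in pre-MCS-01 against post-MCS-01 by -0.10, and 20 of 36 genes were then positive. These counts are descriptions and carry no test.

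**Figure D5:**
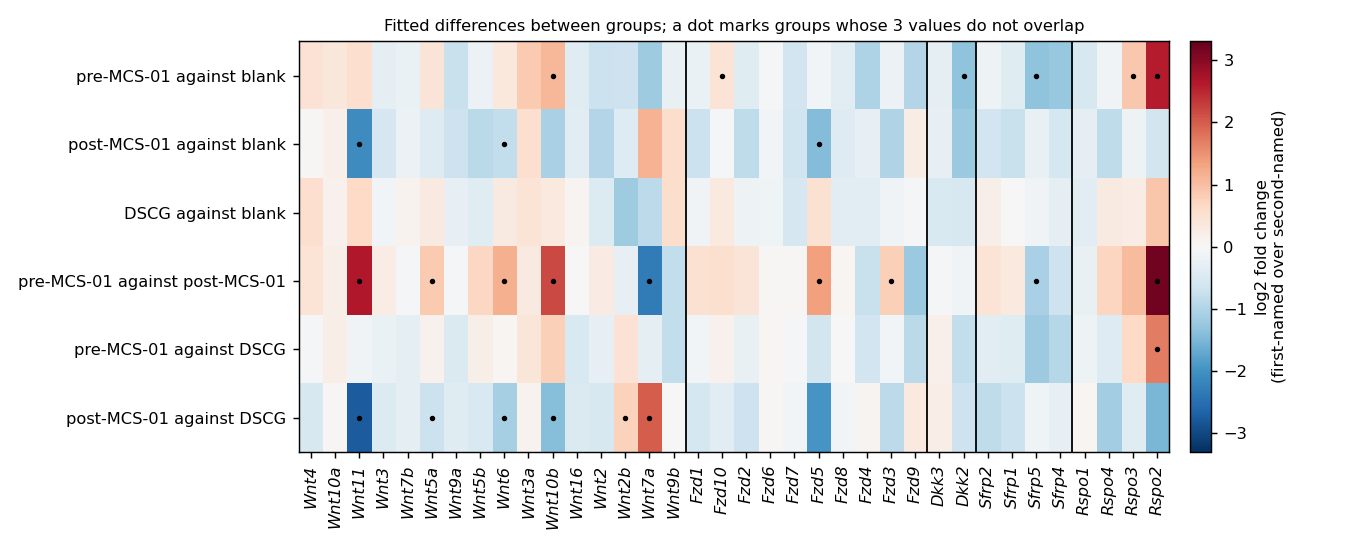
Fitted log2 differences of the 36 tested genes (columns, by family) in the 6 comparisons (rows), first-named group minus the other, as a colour scale. A dot marks groups whose 3 values do not overlap. In the row of pre-MCS-01 against post-MCS-01 the strongest colours stand at Rspo2, Wnt11, Wnt7a and Wnt10b (3.20, 2.64, -2.31 and 2.18). Outside that row Wnt11 reaches -2.75 for post-MCS-01 against DSCG, and Rspo2 2.60 for pre-MCS-01 against blank.

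Further along the pathway, a list of 52 co-receptors, R-spondin receptors, destruction complex members, nuclear factors, feedback inhibitors and targets was read in the same fit. Of 51 genes tested, 0 passed in any comparison or in the joint test by edgeR. At an unadjusted p under 0.05 there were 1 for pre-MCS-01 against blank (7.24% of all genes), 8 for post-MCS-01 against blank (9.35%), 0 for DSCG against blank (1.03%), 11 for pre-MCS-01 against post-MCS-01 (10.2%), 1 for pre-MCS-01 against DSCG (2.36%), 6 for post-MCS-01 against DSCG (11.3%) and 5 in the joint test (8.42%). DESeq2 made 7 calls over the 6 comparisons: 1 for post-MCS-01 against blank (2.57% of all genes), 2 for pre-MCS-01 against post-MCS-01 (2.63%) and 4 for post-MCS-01 against DSCG (3.81%). Lef1 was called in all of these, Nkd2 in both that do not involve blank, and Myc and Notum for post-MCS-01 against DSCG. limma-voom made 0, and with quality weights 22: 6 for pre-MCS-01 against blank (15.3% of all genes), 5 for post-MCS-01 against blank (5.08%) and 11 for pre-MCS-01 against post-MCS-01 (23.5%). Without DSCG replicate 1 edgeR made 5 between pairs of groups: Lef1 and Nkd2 both for pre-MCS-01 against post-MCS-01 and for post-MCS-01 against DSCG, and Notum, a secreted Wnt deacylase, for post-MCS-01 against DSCG (log2 -3.00, adjusted p = 0.0265). Over all genes this fit called 1.54% and 3.67% in these comparisons. Lef1 then also passed the joint test of the 4 groups (adjusted p = 0.0499, 1.65% of all genes called). With any other single library left out edgeR called no gene of this list. The values of pre-MCS-01 and post-MCS-01 did not overlap for 15 of the 51, all higher in pre-MCS-01 (10.7% of all genes).

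Lef1, the nuclear partner of beta-catenin, came nearest to the threshold. It was at 28.8, 42.2 and 33.9 CPM in pre-MCS-01 wounds, 3.20, 0.936 and 3.95 CPM in post-MCS-01, 7.78, 30.2 and 56.5 CPM in DSCG and 30.9, 8.48 and 6.55 CPM in blank wounds, with every post-MCS-01 library below every other library. The log2 difference was 3.70 ± 0.80 for pre-MCS-01 against post-MCS-01 (adjusted p = 0.0654) and -3.55 ± 0.80 for post-MCS-01 against DSCG (adjusted p = 0.0686). Without DSCG replicate 1 both passed, at 3.69 (adjusted p = 0.0171) and -4.003 (adjusted p = 0.00986), although the first holds no DSCG library. Hair matrix cells express Lef1 as well, and the hair marker sums given above were also lowest in post-MCS-01. The part of hair content in Lef1 was not tested.

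Myc, a growth-promoting target of the pathway among many other inputs, had its higher values in both MCS-01 groups. It was at 78.5, 76.6 and 87.6 CPM in pre-MCS-01 wounds, 81.7, 82.8 and 71.5 CPM in post-MCS-01, 60.8, 48.0 and 49.8 CPM in DSCG and 53.9, 53.3 and 62.9 CPM in blank wounds, so that both MCS-01 groups lay above DSCG and blank without overlap. The summed level of 4 neutrophil markers separated the groups in the same way, at 3960 to 6377 CPM in pre-MCS-01 and 4423 to 9953 CPM in post-MCS-01 wounds, against 27.6 to 3644 CPM in DSCG and 481 to 872 CPM in blank wounds. The sum of 4 adipocyte markers did so in the other direction, at 18.4 to 72.9 CPM in pre-MCS-01 and 28.8 to 97.5 CPM in post-MCS-01 wounds, against 111 to 134 CPM in DSCG and 149 to 238 CPM in blank wounds. No marker of either list was called or at 0 throughout a group, and the part of these cell types in the Myc values was not tested. The log2 difference of Myc was 0.52 ± 0.16 for pre-MCS-01 against blank (adjusted p = 0.617), 0.48 ± 0.16 for post-MCS-01 against blank (adjusted p = 0.332), 0.61 ± 0.16 for pre-MCS-01 against DSCG (adjusted p = 0.9998) and 0.57 ± 0.16 for post-MCS-01 against DSCG (adjusted p = 0.152). DESeq2 called the last of these (adjusted p = 0.0193) and the joint test (adjusted p = 0.00701), and limma-voom with quality weights called Myc in pre-MCS-01 against blank (adjusted p = 0.0141), in post-MCS-01 against blank (adjusted p = 0.0153) and in the joint test (adjusted p = 0.0101). Nkd2, a feedback inhibitor that binds Dishevelled, was at 50.2, 70.1 and 52.2 CPM in pre-MCS-01 wounds, 21.5, 9.31 and 18.8 CPM in post-MCS-01, 16.6, 49.0 and 91.5 CPM in DSCG and 45.1, 31.1 and 20.2 CPM in blank wounds. Pre-MCS-01 lay above post-MCS-01 and blank (log2 1.80 ± 0.53 for pre-MCS-01 against post-MCS-01, adjusted p = 0.223, and 0.0489 without DSCG replicate 1). Post-MCS-01 against DSCG gave -1.66 ± 0.53 (adjusted p = 0.219, and 0.0190 without that library). Axin2, the usual readout of canonical signalling, ranged from 34.1 to 45.7 CPM in pre-MCS-01 wounds, 30.3 to 39.8 CPM in post-MCS-01, 26.6 to 49.7 CPM in DSCG and 35.9 to 40.7 CPM in blank wounds. It was chosen after its values were seen, and its log2 difference of pre-MCS-01 from post-MCS-01 was 0.21 ± 0.23.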

How the data were processed

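Wound RNA of 12 mice was sequenced, 1 library per mouse, and grouped by treatment label alone. Mouse numbers differ throughout, so libraries are separate animals. The submitters' processing notes name HTSeq, TopHat2, Bowtie2, FastQC and limma and the build mm10. Versions, strand setting and annotation are not given in the sources used here. The deposited values are raw read counts per gene symbol, and the 5 summary lines of the counting tool were left out (no-feature 4.34 to 6.81% and not unique 17.2 to 23.4% of all lines).

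Counts were tested in R 4.3.3 with edgeR 4.0.16 (quasi-likelihood, two-sided, filterByExpr, TMM factors 0.905 to 1.07, 1 mean per group fitted jointly to the 12 libraries). Benjamini-Hochberg adjustment ran over 16267 genes with a threshold of 0.05, and the biological coefficient of variation was 0.347. Adjusted p values in the text come from this model unless another tool is named. Exact permutation of 3 against 3 values cannot give a p below 0.1. Exon lengths and positions are from GENCODE M21 on GRCm38, the assembly of mm10, matched for 94.5% of symbols, and promoters are from RefSeq (GRCm38.p6). Of these steps only the edgeR fit was tried on simulated counts, for pre-MCS-01 against blank.

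The genes and lists were chosen with earlier results of these data known. Values in every library are given for the genes with the 3 smallest p in each comparison, the 6 smallest in the joint test and the 3 most abundant of each family, and for the 3 pathway genes with the smallest joint p. The exception is Wnt10a, an abundant ligand given by its range in each group. Wnt5a, Fzd4, Wnt3, Sfrp4, Wnt8a, Notum and Axin2 were singled out after their values were seen. Alternatives were RLE and total-count scaling, no filter, DESeq2 1.42.0, limma-voom (limma 3.58.1) without and with quality weights, the newer edgeR fit, only the groups compared, and leaving out libraries.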

Additional observations from a re-analysis of the deposited data

How the results depend on the processing

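No paired analysis was possible because each mouse number in the labels occurs once and no label pairs mice across groups. The replicate numbers used here were assigned in sample order and only name libraries. Of the alternative values for the genes named per comparison, 357 kept direction and side of the threshold, 19 kept direction and passed, and 1 reversed: Wnt7a in DSCG against blank, -0.87 on the log2 scale, was 0.0553 without blank replicate 2 and -1.22 to 0.0553 with each library left out. A fit of DSCG and blank alone gave no value for Wnt7a, which its filter removed. Calls within the families numbered 0 in every comparison as reported. DESeq2 gave 1 (post-MCS-01 against blank), 2 (pre-MCS-01 against post-MCS-01), 2 (post-MCS-01 against DSCG) and 2 (joint test). Quality weights gave 13 (pre-MCS-01 against blank), 3 (post-MCS-01 against blank), 12 (pre-MCS-01 against post-MCS-01) and 12 (joint test). Fits of only the groups compared gave 1 (post-MCS-01 against blank, 1.61% of all genes) and 4 (pre-MCS-01 against post-MCS-01, 1.25%). Leaving out each library gave 0 to 1 call for post-MCS-01 against blank, pre-MCS-01 against post-MCS-01 and the joint test and 0 to 2 for post-MCS-01 against DSCG, all above 0 without DSCG replicate 1. The pathway list had 0 calls as reported, 7 with DESeq2, 22 with quality weights, 1 in the fits of only the groups compared and 0 to 5 with each library left out. Over all genes, the 134 calls for pre-MCS-01 against post-MCS-01 became 0 to 428 and the 172 for post-MCS-01 against DSCG 0 to 620 over the alternatives without quality weights, and with them 3818 and 0. The 0 calls of the joint test, of post-MCS-01 and pre-MCS-01 against blank and of pre-MCS-01 against DSCG reached at most 568, 409, 69 and 17, and 3263, 827, 2485 and 0 with quality weights, while DSCG against blank had 0 calls throughout. The cause of these shifts was not tested. Without the 3 libraries short of long transcripts no gene of any kind was called. Blank replicate 3 holds 3835042 gene reads, so genes near 0.782 CPM could not be placed there.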

Other observations

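The 4 genes left out by the filter on low counts were near the counting limit. Wnt8a had 5, 6 and 3 reads in pre-MCS-01, 0, 0 and 1 in post-MCS-01, 0, 1 and 2 in DSCG and 3, 1 and 1 in blank wounds, and its single read in the shallow blank replicate 3 corresponds to 0.262 CPM. Wnt1 had at most 8 reads in a library, Dkk1 at most 7 and Dkk4 at most 8. Wnt8b, outside the count minimum, had at most 3.

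Beside Wnt6 with Wnt10a and Wnt10b with Wnt1, 2 more ligand pairs lie next to each other with no coding gene between: Wnt3a with Wnt9a on chromosome 11 (16175 bases apart) and Wnt9b with Wnt3 on the same chromosome (24328 bases apart). Wnt3 averaged 7.93 CPM per kb and Wnt9b 0.0645 CPM per kb over the 12 libraries. Wnt3a and Wnt9a averaged 2.58 and 3.51 CPM per kb. Their ranges over the libraries overlapped, at 1.28 to 4.77 and 1.98 to 6.14 CPM per kb.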
